A study of Sus scrofa with 12 samples.

Results

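Isolated mature adipocytes of the pig, called MA, were compared with isolated granulosa cells of the pig, called GC, to describe what separates these 2 tissues at the level of RNA. The comparison covers the 6 arrays titled MA or GC, 3 of each, out of 12 arrays in the study, and all 23999 probe sets of the array other than its controls. MA came from fat tissue and GC from ovarian follicles, and both were taken without the culture step that the remaining groups went through. Those remaining groups were 3 arrays each of DFAT, which are mature adipocytes dedifferentiated by ceiling culture, where buoyant fat cells settle on the upper wall of a filled flask, and of DFOG, which are granulosa cells dedifferentiated in vitro. Both cultured lines were grown to semiconfluence, and they serve here to follow the tissue difference after culture. The labels name no genetic change, breed, age, fat depot or follicle stage, and the titles number each array as a biological replicate but leave it unsaid whether every one came from its own animal, so the tests rest on how far these samples spread.

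Mature adipocytes store triglyceride in a large lipid droplet, make fatty acids, release them again under hormonal control and secrete hormones such as adiponectin and leptin. Granulosa cells surround the oocyte in the ovarian follicle, divide as the follicle grows, respond to follicle-stimulating hormone, convert androgen to estrogen and secrete inhibin. Both tissues handle lipid for a living, the first as stored fuel and the second as a precursor of steroid hormones.

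RNA was read on the Affymetrix porcine genome array, on which several short probes per transcript form a probe set. Levels are log2 values made by robust multi-array averaging (RMA), so that 1 unit is a factor of 2. They have no detection call, the lowest values on the arrays lay between 2.40 and 2.50, and folds of genes near that floor are understated. Probe sets differ in brightness, so each gene is compared only with itself across arrays. A difference was called higher in MA or higher in GC where limma's moderated two-sided test gave a Benjamini-Hochberg adjusted p under 0.05 over all probe sets, and differences are given as log2 MA minus GC ± SE. The spread behind each test and SE was estimated over MA, GC, DFAT and DFOG together, and so includes that of the cultured lines. In whole-cell RNA of this kind, fewer cells of a type and less RNA per cell cannot be told apart.

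Arrays of the same tissue were alike and the tissues were far apart. Pearson's r over all tested probe sets was 0.977 to 0.992 between arrays of MA or of GC and 0.821 to 0.828 between an MA and a GC array, and the first principal component of the 6 arrays held 87.7% of their variance with MA on one side and GC on the other. MA replicate 1 and GC replicate 1 stood apart within their groups: 47 probe sets put MA replicate 1, and 47 put GC replicate 1, at least 4-fold from both companion arrays while those differed by less than 2-fold, against 2 to 3 probe sets for the other 4 arrays. In GC replicate 1 the 28S ribosomal RNA control lay at 5.72, against 10.50 and 9.04 in the other GC arrays. The bacterial poly-A controls, which are added to the RNA before labelling, averaged 8.29 ± 0.18 on the MA arrays and 6.95 ± 0.30 on the GC arrays (SD, n = 3 each), a difference of 1.35 whose exact two-sided permutation p of 0.1 is the smallest that 3 against 3 arrays allow (adjusted p = 0.7 over 7 control comparisons). All differences are therefore relative to the bulk of RNA on each array. For the actin control the 3′ end read above the 5′ end by 1.88 ± 0.52 in MA and by 1.35 ± 0.55 in GC (SD, n = 3 each, exact permutation p = 0.5).

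Of the 23999 probe sets, 9713 (40.5%) separated the tissues, 4976 (20.7%) with the higher level in MA and 4737 (19.7%) with the higher level in GC. A difference of at least 2-fold was found for 6165 of them, and one of at least 4-fold for 1255 on the MA side and 1281 on the GC side. The split depends on the scale: when the arrays were centred on the poly-A controls in place of the common distribution, the median difference of all probe sets went from 0.07 to -1.27 and the share of called probe sets that were higher in MA went from 51.2% to 5.67%. Every MA minus GC difference is 1.35 smaller on that scale, so those given here between 0 and 1.35 change sign there. Among the 6765 genes that could be named, 1817 (26.9%) were higher in MA and 1528 (22.6%) were higher in GC, with a median difference of 0.09 over all of them. The values of the 3 MA and the 3 GC arrays did not overlap for 12665 probe sets (52.8%) and 4232 named genes (62.6%). These shares are the background for every count of list members given here. The differences of named genes ran from -9.0 to 10.76. For 2261 genes with several probe sets the brightest one stood for the gene, and in 38 of these genes probe sets were called in opposite directions. Of the 71 called genes named here that have several probe sets, 42 had all of them called in the same direction, 28 had some that did not pass, and 1, ACTG2, had a probe set called the opposite way.

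**Figure D1:**
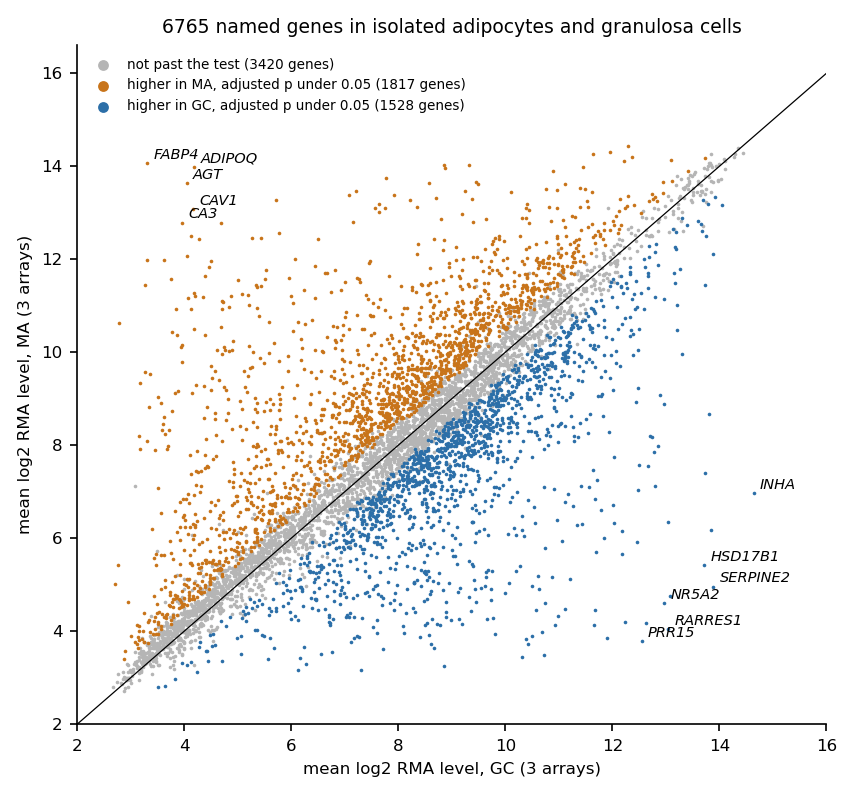
Mean log2 RMA level of each of 6765 named genes in GC (x axis, 3 arrays) and MA (y axis, 3 arrays), with the line of equal levels. Orange points (1817 genes) were higher in MA and blue points (1528 genes) higher in GC at an adjusted p under 0.05, and grey points did not pass. FABP4 and ADIPOQ lie farthest above the line at MA levels near those of the brightest genes, and RARRES1, SERPINE2 and PRR15 lie farthest below it.

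The gene with the widest gap on the MA side was FABP4, the fatty acid carrier of the adipocyte cytoplasm. Its log2 level was 14.12, 14.11 and 13.96 in the 3 MA arrays and 3.18, 3.43 and 3.31 in the 3 GC arrays, a difference of 10.76 ± 0.36 or 1728-fold (adjusted p = 3.49e-09). ADIPOQ, the hormone adiponectin, read 14.18, 14.12 and 13.67 in MA and 4.48, 4.02 and 4.06 in GC, 893-fold apart (adjusted p = 7.9e-09). AGT, the precursor of angiotensin, read 13.37, 13.70 and 13.86 against 3.96, 3.96 and 4.22, a difference of 9.59 ± 0.21 (adjusted p = 5.01e-10). All 3 were near the top of the scale on every MA array and near its floor on every GC array. CAV1, the coat protein of caveolae, the small membrane pits that are dense on fat cells, followed at 8.92 ± 0.22, and CA3, a carbonic anhydrase, at 8.84 ± 0.24. PON3, a lactonase, differed by 8.68, and COL15A1, a collagen of the basement membrane zone, by 8.38. F2RL2, a receptor of the thrombin receptor family, differed by 8.36, SMPDL3A, a phosphodiesterase, by 8.18, and ALDH1A1, a retinaldehyde dehydrogenase, by 8.18. The remaining genes of the 15 widest gaps on this side were FABP5, a second fatty acid carrier (8.10), THBS2, a matrix glycoprotein (8.03), PALMD (7.85), the kinase SGK2 (7.82) and CIDEA, a lipid droplet protein (7.56).

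On the GC side the widest gap was that of RARRES1, a retinoic acid responsive gene. It read 13.21, 13.16 and 12.75 in GC and 4.09, 3.94 and 4.09 in MA, a difference of -9.0 ± 0.30 or 512-fold (adjusted p = 3.49e-09). SERPINE2, a secreted inhibitor of plasminogen activators and thrombin that granulosa cells make, read 13.45, 14.28 and 13.93 in GC against 5.07, 4.91 and 4.89 in MA, 488-fold apart (adjusted p = 1.43e-09). PRR15 read 12.71, 12.41 and 12.53 against 3.34, 3.75 and 4.27 and differed by -8.76 ± 0.21 (adjusted p = 7e-10). LRP8, a receptor for apolipoprotein E and reelin, differed by -8.47, and DAPL1 by -8.32. NR5A2, the orphan nuclear receptor that granulosa cells need for ovulation, differed by -8.37 ± 0.28. Its 5 probe sets disagreed, from -8.37 to 0.31, and the brightest one is given. HSD17B1, the enzyme that reduces estrone to estradiol, read 13.48, 14.09 and 13.58 in GC and 5.43, 5.38 and 5.47 in MA (-8.29 ± 0.19, adjusted p = 5.01e-10). SPOCK3, a matrix proteoglycan, differed by -8.05, VCAN, the large proteoglycan of the follicle, by -8.04, and INHA, the alpha subunit of inhibin, by -7.68. GSTA1, a glutathione transferase, differed by -7.67, and GATA6, a transcription factor of the gonads, by -7.23. TOP2A and PCLAF, both of DNA replication and division, differed by -7.53 and -7.24, and ACSL6, an enzyme that activates fatty acids, by -6.87. PCLAF has a second, dimmer probe set that did not pass, at -0.64.

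Markers of each cell type were then read against the labels. The lists were chosen with earlier results of these data known, so they are no independent check of the labels. In the adipocyte list 17 of 19 measured members were higher in MA and none was higher in GC, with a median difference of 4.23 against 0.09 for all named genes. Under poly-A centring 14 were higher in MA and 2 in GC, with a median of 2.88. Beside FABP4, ADIPOQ and CIDEA, the members with the widest gaps were RBP4, the retinol carrier of blood (7.45), LIPE, the hormone-sensitive lipase (6.80), LPL, the lipoprotein lipase (6.26), GPD1, which makes the glycerol backbone (5.93), and CEBPA, a transcription factor of the adipocyte programme (5.43). RBP4 and CEBPA each have a second, dimmer probe set that did not pass, at 0.03 and 0.45. LEP, the hormone leptin, read 9.65, 9.43 and 9.62 in MA and 6.20, 6.35 and 6.55 in GC, a smaller gap of 3.20 ± 0.25 (adjusted p = 1.64e-06). PPARG, the nuclear receptor that directs adipocyte formation, read well above the floor in both tissues, at 12.09, 12.49 and 12.57 in MA and 10.67, 9.30 and 9.95 in GC, and differed by 2.41 ± 0.32 (adjusted p = 9.94e-05). CEBPB, its partner early in fat cell formation, differed by 1.96 and KLF15 by 1.43. The 2 members that did not pass were SLC2A4, the insulin-responsive glucose transporter, with 7.15, 7.0 and 6.61 in MA and 6.59, 6.48 and 6.60 in GC (adjusted p = 0.14), and ADRB3, the beta-3 adrenergic receptor, with 5.55, 5.87 and 5.71 in MA and 5.58, 5.58 and 5.79 in GC (adjusted p = 0.859). The 3 MA and 3 GC values of ADRB3 overlap.

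In the granulosa list 16 of 27 measured members were higher in GC and 3 were higher in MA, with a median difference of -2.81. Under poly-A centring 26 were higher in GC and 1 in MA, with a median of -4.16. Among its hormones, INHA read 14.85, 14.64 and 14.43 in GC against 7.16, 6.75 and 6.98 in MA, and FST, the activin binder follistatin, read 13.90, 13.93 and 13.37 against 7.37, 7.47 and 7.36 (-6.33 ± 0.32, adjusted p = 6.91e-08). INHBB, the beta B subunit of inhibin and activin, read 9.19, 6.90 and 6.73 in GC, with replicate 1 well above the others, and 3.95, 3.96 and 3.99 in MA (-3.64 ± 0.50, adjusted p = 0.000135). The MA and GC values of these hormones did not overlap. A second, dimmer probe set of INHBB did not pass, at 0.20. Anti-Müllerian hormone, AMH, differed by -2.70 and its receptor AMHR2 by -2.81. Of the gonadotropin receptors, LHCGR read 11.94, 12.19 and 11.23 in GC against 6.72, 6.29 and 6.79 in MA (-5.18 ± 0.26, adjusted p = 5.88e-08), and FSHR read 7.66, 6.36 and 7.34 against 3.85, 3.73 and 3.71 (-3.36 ± 0.28, adjusted p = 2.95e-06). BMPR1B, a receptor for oocyte and granulosa growth factors, differed by -6.70, and GJA1, the gap junction protein connexin 43, by -5.15. Of its transcription factors, GATA4 differed by -4.74, NR5A1 by -2.42 and WT1 by -1.30.

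Other genes that are textbook granulosa markers did not separate the tissues on the deposited scale, and these are named here after their values were seen. CYP19A1, the aromatase that makes estrogen, read 4.84, 5.12 and 4.89 in GC and 5.25, 5.13 and 4.69 in MA (adjusted p = 0.765). FOXL2, the ovarian forkhead factor, read 5.39, 5.67 and 5.62 in GC and 5.89, 5.57 and 5.63 in MA (adjusted p = 0.551), and ESR2, the beta estrogen receptor, read 4.17, 4.03 and 4.46 and 4.24, 4.02 and 4.51 (adjusted p = 0.901). These low readings on arrays without a detection call do not show that a gene was silent. CYP19A1 has 4 probe sets, whose differences ran from -0.43 to 0.38. INHBA, the beta A subunit, did not pass either, at 8.26, 7.76 and 7.88 in GC and 7.95, 7.74 and 8.01 in MA (adjusted p = 0.834). The 3 list members with the higher level in MA were HSD3B1, LHX9 and KITLG, at 3.97, 0.63 and 0.56. HSD3B1 was the 1 member on that side when probe sets whose highest group mean was under 6 were left out. The call of KITLG was also lost without GC replicate 1, GC replicate 2 or MA replicate 1 (adjusted p = 0.0798, 0.0622 and 0.0709).

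**Figure D2:**
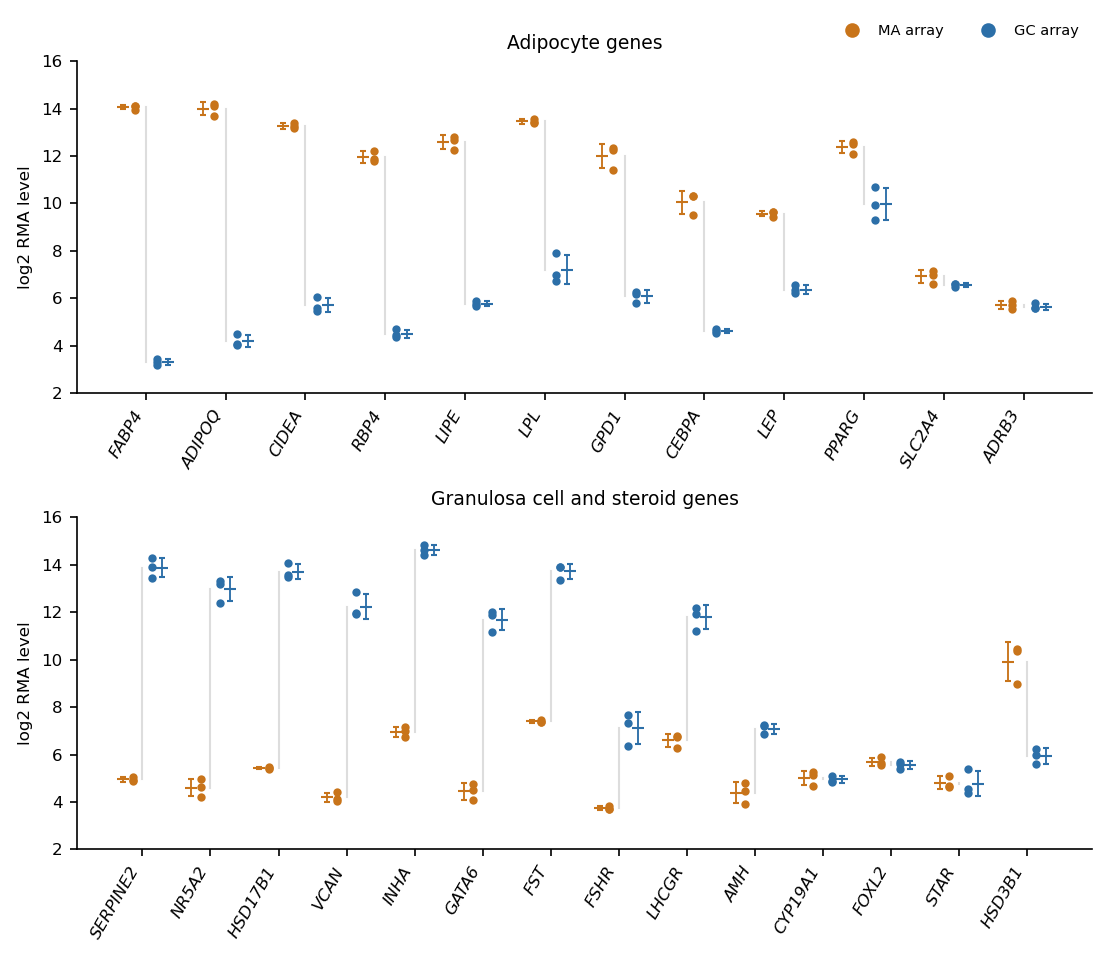
Log2 RMA level of adipocyte genes (upper panel) and of granulosa cell and steroid genes (lower panel), with each MA array as an orange point and each GC array as a blue point, and a bar for the mean ± SD of 3 arrays. FABP4 and ADIPOQ sit near 14 in MA and near 4 in GC while PPARG reads well above the floor in both, and in the lower panel CYP19A1, FOXL2 and STAR lie low in both tissues with overlapping values while HSD3B1 is higher in MA.

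The genes of the steroid pathway fell on both sides, with 9 of 20 measured members higher in GC, 5 higher in MA and a median of -0.23 (15 and 3 under poly-A centring). For all named genes the shares were 22.6% and 26.9%, so the MA count of the list is near the common share. List members on the GC side hold the entry into the pathway and its last reduction. CYP11A1, which cleaves the side chain of cholesterol, read 9.28, 7.74 and 9.16 in GC and 4.77, 4.15 and 3.56 in MA (-4.56 ± 0.42, adjusted p = 6.11e-06), and FDXR, which feeds it with electrons, differed by -4.57 ± 0.17. HSD17B1 and the receptor NR5A2 were given above. On the MA side stood HSD3B1, which makes progesterone from pregnenolone. It read 8.96, 10.36 and 10.44 in MA and 6.25, 5.6 and 5.99 in GC (3.97 ± 0.41, adjusted p = 1.4e-05), and the values did not overlap. TSPO, a protein of the outer mitochondrial membrane, differed by 3.78, HSD17B12, which also elongates fatty acids, by 2.43, and HSD11B1, which regenerates cortisol from cortisone, by 1.94, a call that was lost without MA replicate 1 (adjusted p = 0.0591). STAR, the carrier of cholesterol into mitochondria, read 4.38, 5.39 and 4.56 in GC and 4.67, 4.62 and 5.12 in MA (adjusted p = 0.949), with overlapping values.

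Cholesterol genes were split as well, 6 of 13 higher in GC and 4 higher in MA, with a median of 0.17 (9 and 1 under poly-A centring). The count on the MA side is again near the 26.9% of all named genes, and 22.6% of these were higher in GC. SCARB1, the receptor that takes up cholesterol ester from high-density lipoprotein, differed by -2.64 and SREBF2, the factor that drives the cholesterol pathway, by -2.25. TM7SF2 and SQLE, enzymes of the pathway, differed by -1.5 and -1.49, and the call of TM7SF2 was lost without GC replicate 2 or MA replicate 2 (adjusted p = 0.0599 and 0.0619). NPC2 and NPC1, which move cholesterol out of lysosomes, were higher in MA by 2.66 and 1.06, as were INSIG1 (2.07), a brake on the pathway, and SC5D (1.54), one of its last enzymes.

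Genes of fat storage were mostly higher in MA. In the list of fatty acid and triglyceride synthesis 12 of 18 measured members were higher in MA and 3 in GC, with a median of 2.05. Under poly-A centring the counts were 8 and 5 and the median 0.70. ACSL1, which activates fatty acids, read 11.63, 11.92 and 11.40 in MA and 4.41, 4.47 and 4.27 in GC (7.27 ± 0.19, adjusted p = 9.81e-10). DGAT2, which adds the last acyl chain to triglyceride, read 12.50, 12.38 and 12.51 against 5.34, 5.39 and 5.55 (7.04 ± 0.41, adjusted p = 1.64e-07). No MA value came near a GC value in either gene. ELOVL6, which lengthens palmitate, differed by 5.47, and PC, the carboxylase that supplies oxaloacetate, by 5.37. SCD, the stearoyl desaturase, FASN, the fatty acid synthase, and ACACA, the carboxylase that makes malonyl-CoA, are the best known genes of the list, and they differed by 5.04, 4.22 and 2.02. The 3 members on the GC side were FADS1, FADS2 and AGPAT2. FADS1 and FADS2, the desaturases that make polyunsaturated fatty acids, read 7.67, 7.07 and 6.79 and 7.78, 6.26 and 6.11 in GC, against 4.13, 4.03 and 4.73 and 4.54, 4.22 and 3.77 in MA (adjusted p = 9.4e-06 and 0.00109).

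Lipolysis and fatty acid oxidation had 19 of 22 members on the MA side and 1 on the GC side, with a median of 1.68, and under poly-A centring 8 and 3 with a median of 0.34. Triglyceride is taken apart in steps. PNPLA2, the lipase that acts first, differed by 4.23 ± 0.22, its coactivator ABHD5 by 6.21 ± 0.18, LIPE, which acts next, by 6.80 ± 0.24, and MGLL, the monoglyceride lipase that ends the series, by 6.23 ± 0.32. The mitochondrial enzymes differed less, with ACAA2 at 2.98, HADH at 2.74 and ACADM at 1.2. CPT1A, the form of the carnitine transferase typical of liver, was the member higher in GC (-1.03, adjusted p = 0.0241), a call that was lost when any of MA replicate 2, MA replicate 3 or GC replicate 3 was left out. CPT1B, the form typical of muscle and fat, was higher in MA by 1.98. Catabolism of branched-chain amino acids, a fuel of fat cells, had 12 of 16 members on the MA side, none on the GC side and a median of 1.30. The widest gaps were MCCC2 (2.97), ACAD8 (2.19), PCCA (2.01) and ACADSB (1.98), all of them mitochondrial. This median turned to -0.05 under poly-A centring, where 3 members were higher in MA and 4 in GC.

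The next lists were those of central energy metabolism. In the citrate cycle 9 of 20 members were higher in MA and 2 in GC, with a median of 0.63 that became -0.72 under poly-A centring. PDHA1, a subunit of pyruvate dehydrogenase, differed by 2.82, SUCLA2 by 2.50 and CS, the citrate synthase, by 1.73, while IDH2, a mitochondrial isocitrate dehydrogenase, was higher in GC (-2.0 ± 0.21, adjusted p = 1.86e-05). Respiratory chain genes had 9 of 22 members on the MA side and 2 on the GC side, with a median of 0.30 (-1.04 under poly-A centring) and no difference on the MA side beyond 1.19, that of COX7A1. Glycolysis was divided, 5 of 16 members higher in MA and 6 higher in GC (1 and 13 under poly-A centring). Its MA count is near the 26.9% of all named genes, and 22.6% of these were higher in GC. ALDOC, an aldolase, read 13.10, 13.03 and 13.19 in MA and 7.72, 7.69 and 7.28 in GC (5.55 ± 0.37), whereas the glucose transporter SLC2A3 differed by -2.80 and ENO1, the enolase, by -1.77. SLC2A1, another glucose transporter, was higher in MA by 1.77. Of 25 cytosolic ribosome genes, 22 did not pass, 3 were higher in GC and the median was 0.06, close to that of all named genes, while under poly-A centring all 25 were higher in GC with a median of -1.28.

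Receptors through which hormones reach fat were higher in MA for 6 of 10 measured members, none being higher in GC, with a median of 1.43 that fell to 0.09 under poly-A centring, where 5 members were higher in each tissue. ADORA1, an adenosine receptor that restrains lipolysis, differed by 4.42 ± 0.22, and PTGER3, a prostaglandin E2 receptor with the same effect, by 4.30 ± 0.16. GHR, the growth hormone receptor, differed by 3.75 and THRB, a thyroid hormone receptor, by 3.69. The alpha-2A adrenergic receptor ADRA2A and the leptin receptor LEPR did not pass, at 0.04 and 0.10 (adjusted p = 0.846 and 0.609). Of 8 insulin signalling members, 2 were higher in MA and 1 was higher in GC (1 and 6 under poly-A centring). AKT2, the insulin-responsive kinase of fat and muscle, was higher in MA (2.57 ± 0.18), as was GRB10 (1.67), and FOXO1, a transcription factor that insulin switches off, was higher in GC. FOXO1 read 13.29, 13.30 and 13.31 in GC and 10.12, 9.83 and 9.92 in MA (adjusted p = 1.48e-07).

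Cell division separated the tissues in 1 direction. All 15 measured mitosis genes were higher in GC, with differences from -7.53 to -0.84 and a median of -4.23, and 12 of 15 DNA replication genes were higher in GC, with a median of -2.04. TOP2A, which untangles DNA before cells divide, read 12.24, 11.33 and 11.39 in GC and 4.34, 3.82 and 4.22 in MA. CCNB1, the mitotic cyclin, read 11.49, 11.07 and 10.81 against 4.16, 4.51 and 4.75 (-6.65 ± 0.49, adjusted p = 1.11e-06), and UBE2C, which helps destroy it, differed by -5.53. NUSAP1, a spindle protein, differed by -5.13. CCND2, the D-type cyclin that gonadotropin induces in granulosa cells, read 11.72, 12.41 and 11.40 in GC and 5.18, 6.37 and 6.45 in MA (-5.84 ± 0.43, adjusted p = 1.08e-06). RRM2, which makes deoxynucleotides, differed by -4.65 and MCM2, of the replication helicase, by -3.43. MCM4, GMNN and PCNA did not pass, at -0.01, -0.34 and -0.62 (adjusted p = 0.96, 0.183 and 0.127).

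**Figure D3:**
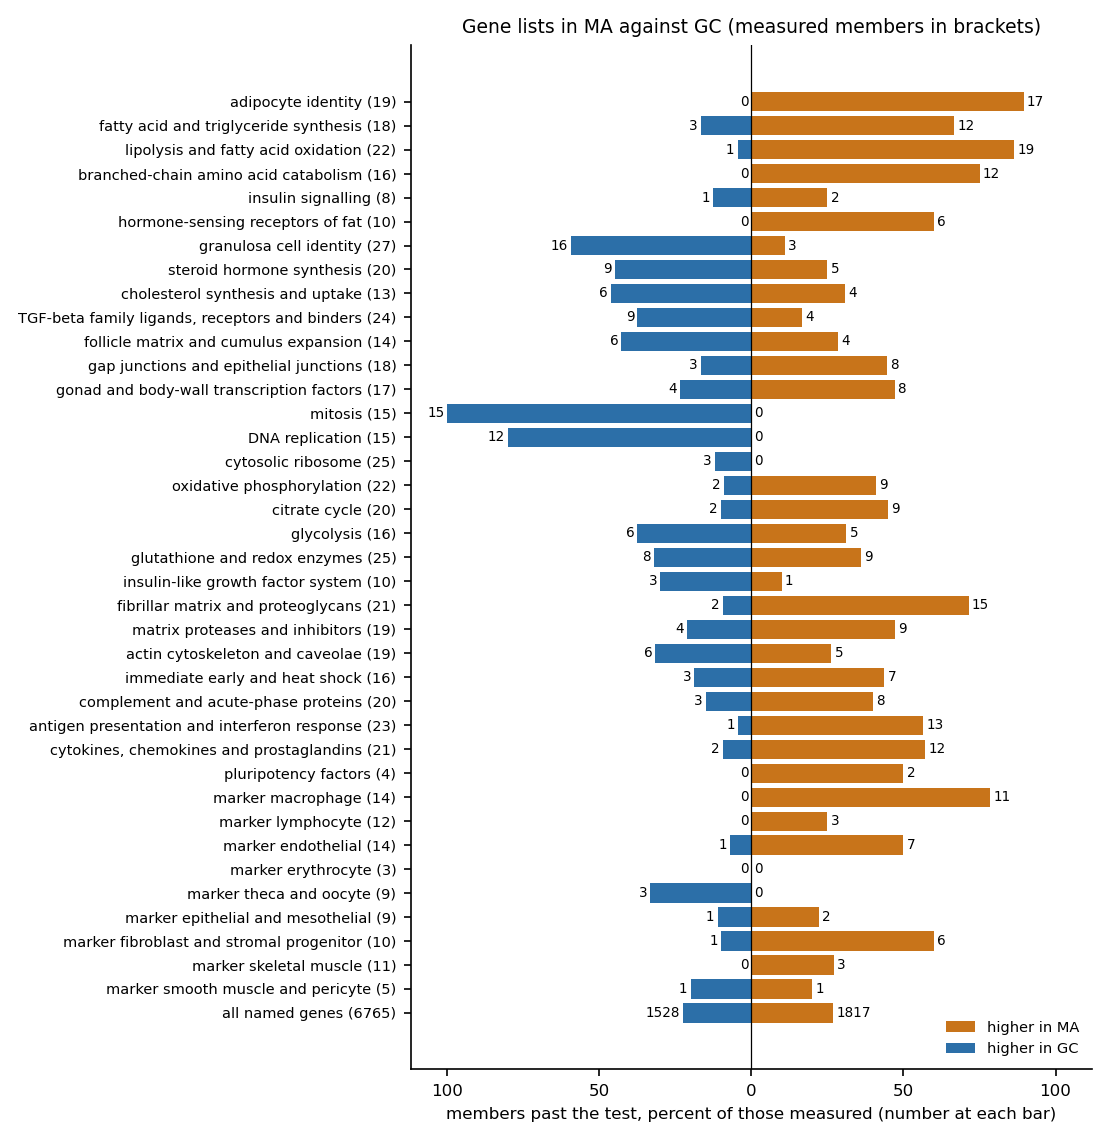
Share of measured members of each gene list that were higher in MA (orange, to the right) or higher in GC (blue, to the left) at an adjusted p under 0.05, as a percent of the members measured (in brackets), with the number at each bar and all 6765 named genes as the last bar. Adipocyte identity (17 of 19) and lipolysis (19 of 22) lie to the right and mitosis (15 of 15) to the left, while under poly-A centring a median on the MA side remains for the adipocyte, triglyceride synthesis, lipolysis, fat receptor, fibrillar matrix, pluripotency, macrophage and fibroblast lists, and for no other.

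Glutathione and redox enzymes fell on both sides, with 9 of 25 higher in MA and 8 higher in GC (5 and 14 under poly-A centring). Over all named genes the shares were 26.9% and 22.6%. GPX1, CAT and GPX4, which remove peroxides, and SOD2, which removes superoxide, were higher in MA by 5.18 ± 0.34, 3.0 ± 0.17, 2.51 ± 0.17 and 4.78 ± 0.38. The transferases MGST3 and GSTK1 were also higher in MA, by 2.23 and 1.64. Members on the GC side included PRDX1, another peroxide remover (-1.16). GSTA1 read 13.91, 13.98 and 13.66 in GC and 6.18, 6.20 and 6.15 in MA, and its 3 probe sets differed by -9.69 to -4.69. GCLC, the catalytic subunit of the first step of glutathione synthesis, read 12.46, 12.75 and 12.21 in GC and 6.79, 7.04 and 7.29 in MA (-5.44 ± 0.19, adjusted p = 3.94e-09), and GSTA4, a further alpha class transferase, differed by -3.81. HMOX1, the heme oxygenase, differed by -1.61. The alpha class transferases come from a family of similar sequences, and the files do not show how far their probes cross-hybridise.

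Growth factor systems of the follicle were read from 2 further lists. In the insulin-like growth factor system 3 of 10 members were higher in GC and 1 in MA (9 and 0 under poly-A centring). IGFBP2, a binding protein, read 12.66, 11.79 and 12.10 in GC and 5.85, 6.29 and 4.84 in MA (-6.52 ± 1.07, adjusted p = 0.000495). The receptor IGF1R differed by -2.87 and the ligand IGF1 by -1.40, and IGFBP6, another binding protein, was higher in MA by 1.51. In the TGF-beta family 9 of 24 members were higher in GC and 4 in MA, with a median of -0.12 (21 and 1 under poly-A centring). The GC side held INHA, BMPR1B, FST and INHBB. On the MA side, TGFB2, a ligand, differed by 2.68 and ACVR1, an activin receptor, by 1.15. The count of 4 fell to 2 without MA replicate 3.

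Genes of the follicle matrix and of cumulus expansion were found on both sides. Of 14 measured members 6 were higher in GC and 4 were higher in MA (9 and 3 under poly-A centring). Among all named genes the shares were 22.6% and 26.9%, so the MA count of this list is near the common share. VCAN, SERPINE2, PLAT, the tissue plasminogen activator, and LAMB2, a laminin chain, were on the GC side, the last 2 at -3.11 and -2.53. PTX3, the pentraxin that stabilises the cumulus matrix, was on the MA side, at 8.31, 10.09 and 10.19 in MA and 3.73, 3.35 and 3.01 in GC (6.17 ± 0.48, adjusted p = 1.72e-06). NID2, a basement membrane protein, TNFAIP6, which transfers heavy chains to hyaluronan, and PTGS2, the inducible prostaglandin synthase, were also higher in MA, by 3.43, 2.30 and 2.14. Of 18 junction genes, 8 were higher in MA and 3 in GC, with a median of 0.38 (-0.96 under poly-A centring). The gaps of CLDN11 (-6.56 ± 0.30) and GJA1 (-5.15 ± 0.19) on the GC side exceeded the widest on the MA side, CLDN4 (2.99 ± 0.17) and KRT18 (1.88 ± 0.67). KRT18 read 9.18, 5.72 and 6.28 in MA and 5.33, 5.25 and 4.97 in GC (adjusted p = 0.0435), so that MA replicate 1 set most of its difference, which was 0.82 without that array. Its call was lost without any 1 of the GC arrays (adjusted p from 0.074 to 0.112), any 1 of the DFAT arrays or DFOG replicate 1 (adjusted p from 0.0508 to 0.057). With the actin control as a covariate, 5 junction genes were higher in MA. Epithelial and mesothelial markers, which share KRT18 and CLDN4 with the junction list, were higher in MA for 2 of 9 and in GC for 1, and their summed log2 level was 10.64, 10.01 and 9.80 in MA replicates 1, 2 and 3 and 8.22 to 8.43 in GC. Of the markers that define epithelia, EPCAM was higher in GC (-0.53, adjusted p = 0.0377) and lost that call without DFOG replicate 1, MA replicate 2 or 3, or any 1 of the GC arrays (adjusted p from 0.0509 to 0.138), and CDH1 did not pass (0.32, adjusted p = 0.386). The part of such cells in the junction result was not tested.

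Transcription factors that mark body position and the gonad gave 8 of 17 members higher in MA and 4 higher in GC, with a median of 0.28 (-1.07 under poly-A centring), and the 8 became 5 without MA replicate 2. HOXA9, of the trunk and hind part of the body, read 9.49, 9.32 and 9.23 in MA and 3.32, 3.11 and 3.06 in GC (6.18 ± 0.21, adjusted p = 3.49e-09), and HOXB7 differed by 2.93. GATA6 read 11.68 ± 0.45 in GC and 4.45 ± 0.34 in MA (SD, n = 3 each), and GATA4 read 9.74, 8.57 and 8.65 in GC and 4.04, 4.14 and 4.54 in MA. GATA3, a factor that restrains fat cell formation, was higher in MA by 1.17, and PRRX1 by 1.14. The call of PRRX1 was lost without GC replicate 2, GC replicate 3 or any 1 of the MA arrays (adjusted p from 0.0561 to 0.0982). NR2F2, an orphan receptor, was higher in GC (-1.47).

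Fibrillar matrix genes were mostly on the MA side, 15 of 21 higher in MA and 2 higher in GC, with a median of 3.15 (1.80 under poly-A centring, with 12 and 2). The median was also 1.80 when the probe sets of a gene were averaged, with 17 higher in MA and 2 in GC. COL15A1 read 12.58, 12.42 and 12.50 in MA and 4.27, 3.98 and 4.12 in GC. THBS2 read 11.82, 12.33 and 12.08 against 3.76, 3.92 and 4.45. DCN, the proteoglycan decorin, read 9.42, 10.97 and 11.10 against 3.71, 4.30 and 4.54 (6.32 ± 0.47, adjusted p = 1.2e-06), the lowest MA array being replicate 1. Its second, dimmer probe set did not pass, at 0.20. COL6A3, a chain of the collagen around fat cells, differed by 6.34 ± 0.53. FBLN1, a fibulin, and TNC, tenascin C, were the members higher in GC, at -2.94 and -1.74. Matrix proteases and inhibitors had a median of 0.56 (-0.79 under poly-A centring, with 3 higher in MA and 9 in GC). On the deposited scale 9 of 19 were higher in MA, led by CTSK, a collagen-degrading cathepsin (5.38 ± 0.28), and SERPINF1, an inhibitor of vessel growth (3.43 ± 0.43), and 4 were higher in GC, led by TIMP1, an inhibitor of matrix metalloproteinases (-3.87 ± 0.20). In the list of caveolae and the actin cytoskeleton 5 of 19 members were higher in MA and 6 in GC (3 and 14 under poly-A centring). CAV1 read 13.21, 13.09 and 12.95 in MA and 4.03, 4.39 and 4.05 in GC, and CAV2 differed by 6.84 ± 0.29. Among the 6 on the GC side were FLNA, a filamin (-2.14), TPM2, a tropomyosin (-1.44), and ACTG2, a smooth muscle actin (-2.40). The 2 probe sets of ACTG2 were called in opposite directions, at -2.40 and 1.07, and the brighter one is given.

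Immune genes were higher in MA more often than in GC on the deposited scale. In the list of antigen presentation and interferon response 13 of 23 were higher in MA and 1 in GC, with a median of 0.88 that became -0.47 under poly-A centring. GBP1, an interferon-induced GTPase, read 8.22, 8.16 and 8.38 in MA and 3.44, 3.80 and 3.68 in GC (4.61 ± 0.37, adjusted p = 2.03e-06). IRF1 differed by 4.31 and SLA-DRA, a class II antigen presentation chain, by 3.62. OAS1, an antiviral enzyme, read 5.79, 8.88 and 9.04 in MA, with replicate 1 lowest, and 3.82, 3.37 and 3.19 in GC (4.44 ± 1.2, adjusted p = 0.0116), a call that was lost without MA replicate 2 or MA replicate 3 (adjusted p = 0.05005 and 0.053). Cytokines, chemokines and prostaglandin genes had 12 of 21 members on the MA side and 2 on the GC side, with a median of 1.04 (-0.30 under poly-A centring). CCL2, which attracts monocytes, read 10.31, 12.02 and 11.20 in MA and 3.83, 4.16 and 4.22 in GC (7.11 ± 0.51, adjusted p = 9.11e-07), and CXCL2, which attracts neutrophils, differed by 5.49. PTGES, the synthase of prostaglandin E2, was on the GC side, with 12.72, 12.84 and 11.93 in GC and 6.36, 8.06 and 8.31 in MA (-4.92 ± 0.43, adjusted p = 3.85e-06).

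Of the complement and acute-phase genes 8 of 20 were higher in MA and 3 in GC, with a median of 0.65 (-0.70 under poly-A centring). C1S and C1R, the proteases of the first complement component, differed by 5.39 and 3.26, and SERPING1, their inhibitor, by 5.08. CD55 and CD46, which protect cells from complement, were higher in GC (-3.24 ± 0.37 and -2.30 ± 0.22). Immediate early and heat shock genes, which respond to handling of tissue, had 7 of 16 members higher in MA and 3 higher in GC (3 and 9 under poly-A centring). IER3 differed by 5.64 ± 0.18, MYC by 3.66 ± 0.17 and ZFP36, which destabilises cytokine messages, by 2.62, whereas FOS, JUN and EGR1 did not pass, at -0.02, -0.20 and 0.12 (adjusted p = 0.98, 0.457 and 0.889). The heat shock cognate HSPA8 was higher in GC (-1.66). Of the pluripotency factors KLF4 and MYC, both also early response genes, were higher in MA by 2.57 and 3.66, and POU5F1 read 4.95 in MA and 4.64 in GC (adjusted p = 0.241).

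Markers of other cells that a preparation can hold were counted in the same way. The fibroblast list shares DCN with the fibrillar matrix list, so the counts of these lists are not independent. Of the macrophage markers 11 of 14 were higher in MA and none in GC, with a median of 1.5 (0.16 under poly-A centring), and their summed level on the log2 scale was 9.88 to 10.79 in MA and 8.60 to 8.73 in GC. C1QC read 4.74, 8.12 and 8.40 in MA and 3.55, 3.41 and 3.57 in GC (3.57 ± 0.73, adjusted p = 0.00212), and CD163, a scavenger receptor of tissue macrophages, read 6.04, 6.14 and 6.52 and 4.04, 4.23 and 4.31 (2.04 ± 0.17). SPI1 and PTPRC, which also define these cells, did not pass (0.05 and 0.01, adjusted p = 0.918 and 0.959). When probe sets whose highest group mean was under 6 were left out, 7 of the macrophage markers that remained were higher in MA. The median of the remaining markers was 1.885. Fibroblast and stromal progenitor markers were higher in MA for 6 of 10 and in GC for 1, DPP4 (-2.45), and their summed level was 11.76 to 12.86 in MA and 9.45 to 9.61 in GC. DPT, a small dermal matrix protein, differed by 6.13, LUM by 4.74 and MFAP5 by 4.47. The part of macrophages and stromal cells in the matrix, complement and immune differences was not tested. Without MA replicate 1, whose summed stromal and macrophage levels were the lowest of the MA arrays, the fibrillar matrix count was 16 of 21, the complement count 8 of 20 and the macrophage count 11 of 14. Leaving out the array with the lowest levels cannot show what part such cells had in these counts.

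**Figure D4:**
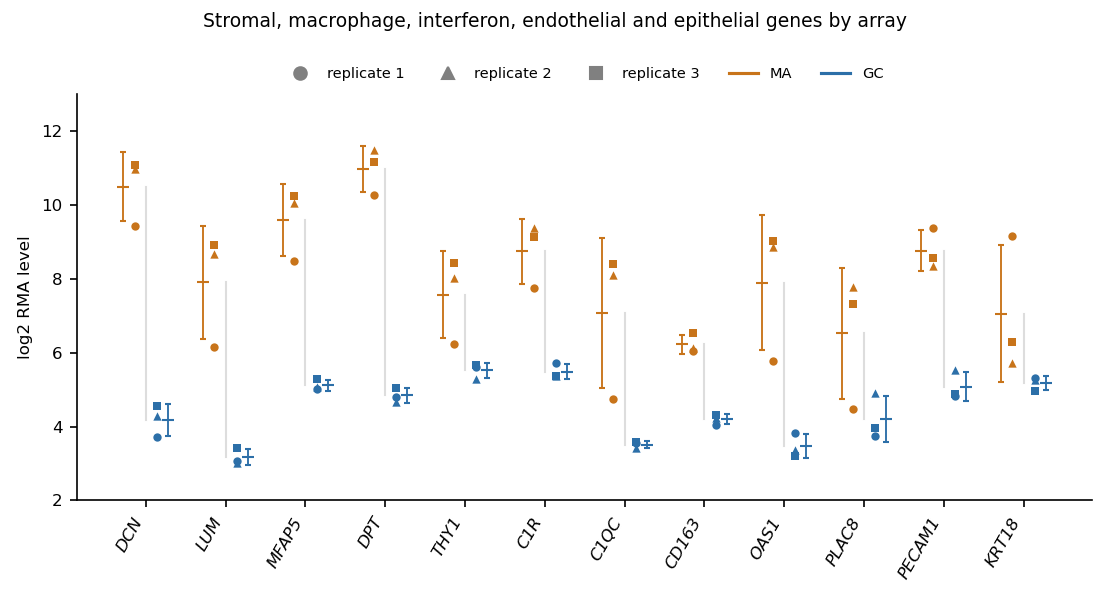
Log2 RMA level on each array of stromal (DCN, LUM, MFAP5, DPT, THY1), complement (C1R), macrophage (C1QC, CD163), interferon and immune (OAS1, PLAC8), endothelial (PECAM1) and epithelial (KRT18) genes, in orange for MA and blue for GC, with the symbol giving the replicate number and a bar the mean ± SD of 3 arrays. MA replicate 1 (circles) is the lowest MA array for LUM and C1QC and the highest for PECAM1 and KRT18.

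Endothelial markers were higher in MA for 7 of 14 and in GC for 1, with a median of 0.56 (-0.78 under poly-A centring) and a summed level of 10.09 to 10.72 in MA and 9.74 to 9.99 in GC, and 4 were higher in MA with the actin control as a covariate. PECAM1, an adhesion molecule of vessel walls, read 9.39, 8.34 and 8.57 in MA and 4.82, 5.54 and 4.88 in GC (3.69 ± 0.30), and TIE1, an endothelial receptor, was higher in GC (-3.26 ± 0.26). VWF, which also defines these cells, and KDR, which did not pass, differed by 0.66 and 0.14 (adjusted p = 0.0251 and 0.586), and VWF did not pass without GC replicate 1, GC replicate 3 or MA replicate 1 (adjusted p = 0.09, 0.0595 and 0.0891). Markers of theca cells and oocytes, the neighbours of granulosa cells, were higher in GC for 3 of 9, INSL3 (-2.65), KIT (-1.55) and GDF9 (-0.63), while CYP17A1, the defining enzyme of theca cells, did not pass (0.34, adjusted p = 0.17). Their summed level was 10.47 to 11.67 in GC and 9.50 to 9.74 in MA. Of 12 lymphocyte markers 3 were higher in MA, and 1 when GC replicate 1, GC replicate 2 or MA replicate 3 was left out, and no marker of the list differed by more than 0.60. Of 11 skeletal muscle markers 3 were higher in MA, none of them by more than 0.88. None of 3 erythrocyte markers passed, and of the smooth muscle markers TAGLN was higher in MA (4.11) and RGS5 in GC (-1.13), a call that was lost without GC replicate 1 or 3, MA replicate 2 or 3, DFAT replicate 1 or 2, or DFOG replicate 1 (adjusted p from 0.0519 to 0.171).

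Spread within the groups was small for most genes, with a median SD over 3 arrays of 0.204 in MA and 0.210 in GC. An SD over 1 was found for 167 probe sets (0.696%) in MA and 245 (1.02%) in GC. The genes named next were singled out for their spread after their values were seen. EIF1AY, a gene of the Y chromosome in mammals, read 3.24, 9.68 and 8.43 in MA and 3.16, 3.09 and 2.98 in GC, so that MA replicate 1 lay at the level of the follicle cells and the other MA arrays far above it. In DFAT it read 3.09, 8.20 and 3.07. Follicle cells come from females, and the sex of the MA donors was not tested. A difference of sex between MA and GC samples cannot be told apart from that of tissue. SAL1, the salivary lipocalin that binds boar pheromones, read 13.56, 7.26 and 8.10 in MA, and CYP3A46, a drug-metabolising enzyme, read 11.66, 5.6 and 7.0, each with replicate 1 on top. The GC arrays read 8.13, 8.96 and 8.73 for SAL1, which did not pass (limma adjusted p = 0.568), and 3.47, 3.25 and 3.20 for CYP3A46. In GC, ESR1, the alpha estrogen receptor, read 8.90, 6.17 and 6.10, TGFBR3, a coreceptor of inhibin, read 8.15, 5.39 and 6.35, and INHBB was given above. Replicate 1 was the highest GC array in all 3 of these genes. Without it the difference of ESR1 went from -1.99 to -1.07 and that of TGFBR3 from -1.62 to -0.86, and without MA replicate 1 that of CYP3A46 went from 4.78 to 3.0. The call of ESR1 was lost without MA replicate 3 (adjusted p = 0.112), and that of TGFBR3 without GC replicate 1 or 3 or any 1 of the MA arrays (adjusted p from 0.0564 to 0.105).

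The same tissue difference was then read in the cultured lines, as DFAT minus DFOG. There 1921 probe sets passed, 887 (3.70%) higher in DFAT and 1034 (4.31%) higher in DFOG, and among named genes 329 (4.86%) and 371 (5.48%). Of the 4976 probe sets higher in MA than in GC, 541 (10.9%) were also higher in DFAT and 155 were higher in DFOG. Of the 4737 higher in GC, 575 (12.1%) were also higher in DFOG and 67 were higher in DFAT. The median difference of the first set was 1.19 in isolated cells and 0.17 in the cultured lines, and that of the second set -1.29 and -0.19. DFOG counts as 2 samples, because its replicates 2 and 3 were nearly identical (SD of their differences 0.074, against 0.310 to 0.621 for other pairs) and were averaged. Without DFOG replicate 1 the cultured comparison gave 1103 probe sets, and 308 and 360 in place of 541 and 575. The test of the difference itself, isolated minus cultured, passed for 5593 probe sets (23.3%) and 1973 named genes (29.2%). It found a smaller gap in culture for 2469 of the probe sets higher in MA and for 2482 of those higher in GC, and a larger one for 45 and 48. These probe sets were selected on their MA minus GC gap, which is also part of the change tested. Such a selection favours smaller gaps in culture, in these counts and in the medians above, and how far was not tested.

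Some tissue differences were also wide in the cultured lines. COL6A3 differed by 6.34 between MA and GC and by 6.75 between DFAT and DFOG (adjusted p = 2.7e-05), and HOXA9 by 6.18 and 5.61 (adjusted p = 1.4e-07). The change between isolated and cultured cells did not pass for either gene (adjusted p = 0.78 and 0.23). HOXA9 read 9.47, 8.66 and 9.32 in DFAT and 3.49 and 3.6 in DFOG. C1S, SGCD, a sarcoglycan, CTSK and SERPING1 also had a cultured difference of at least 4, at 5.27, 4.81, 4.62 and 4.22. ALDH1A1 (4.76) and CAV2 (4.18) kept their direction with a smaller gap (adjusted p of the change 0.0253 and 0.00103). On the follicle side PERP, a desmosome protein, differed by -6.69 and -6.72, the adhesion molecule ALCAM by -5.06 and -4.81, and GATA4 by -4.74 and -4.21 (adjusted p of the change 0.986, 0.781 and 0.609). FZD5, a Wnt receptor, differed by -6.03 and -4.53. CYP11A1 and RNF128, a ubiquitin ligase, had a wider gap in culture (-4.56 and -6.59, -4.14 and -5.35, adjusted p of the change 0.0393 and 0.00993). PRR15 (-5.89) and CLDN11 (-4.76) kept their direction with a smaller one (adjusted p of the change 8.84e-05 and 0.0138).

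Other differences of the isolated cells did not pass in the cultured lines. SERPINE2 differed by -8.93 between the isolated cells and by 0.10 between the cultured ones (adjusted p = 0.954), HSD17B1 by -8.29 and 0.14 (adjusted p = 0.874), and VCAN by -8.04 and -0.08 (adjusted p = 0.965). In culture SERPINE2 and VCAN read high in both lines, with means of 11.53 and 10.96 in DFAT and 11.43 and 11.04 in DFOG. HSD17B1 read low in both, at 5.46 in DFAT and 5.32 in DFOG. On the fat side CA3 went from 8.84 to 0.20, PON3 from 8.68 to 0.07 and CCL2 from 7.11 to 0.23 (adjusted p = 0.862, 0.972 and 0.947 in the cultured lines). CA3 and PON3 read low in both lines, with means of 4.12 and 3.35 in DFAT and 3.92 and 3.28 in DFOG. FABP4 still separated the lines, at 4.07 (adjusted p = 6.7e-05). Among named genes that passed both tests, 66 of those higher in MA were higher in DFOG than in DFAT and 25 of those higher in GC were higher in DFAT. HSD3B1 read 6.09, 5.01 and 5.86 in DFAT and 11.48 and 12.17 in DFOG, a difference of -6.17 (adjusted p = 7.88e-06) where the isolated cells gave 3.97. The sterol hydroxylase CYP27A1 (3.32 and -2.10) and the kinases SGK1 (3.20 and -2.27) and NUAK1 (3.28 and -2.14) turned in the same manner, and the drug exporter ABCB1 (-3.44 and 2.98) and the growth factor AREG (-2.16 and 3.88) turned the other way.

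**Figure D5:**
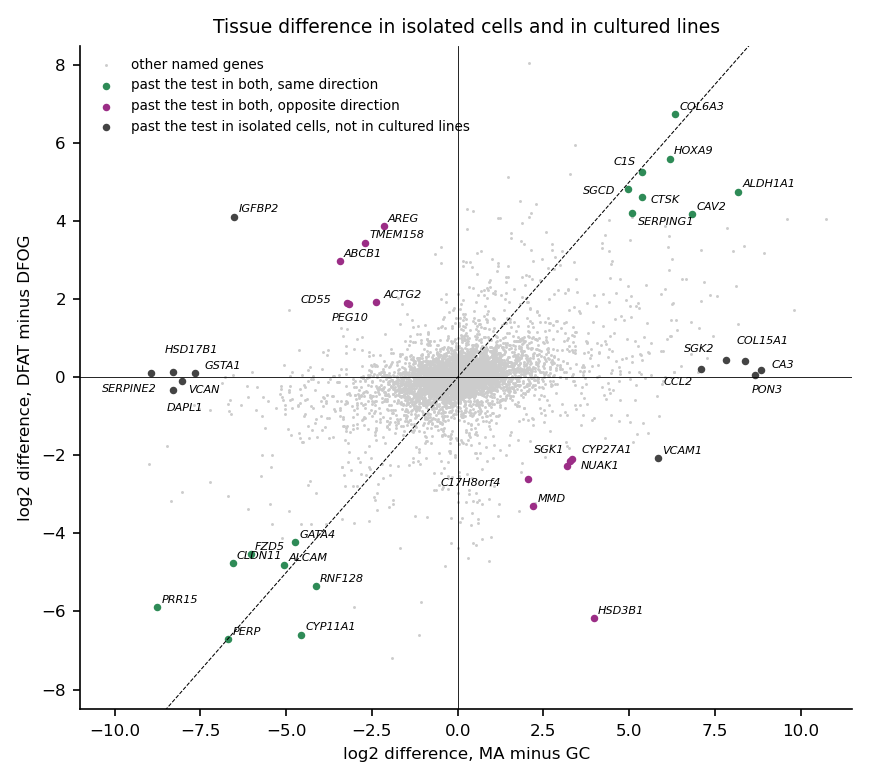
Log2 difference MA minus GC (x axis) against DFAT minus DFOG (y axis) for all named genes, with the dashed line where both are equal. Green genes passed both tests in the same direction, purple genes passed both in opposite directions and dark genes passed only in the isolated cells. COL6A3 lies at 6.34 and 6.75 near the line, SERPINE2 at -8.93 and 0.10 near the horizontal axis, and HSD3B1 at 3.97 and -6.17 in the opposite quadrant.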

How the data were processed

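Log2 expression values of 12 Affymetrix porcine arrays were used as deposited by the authors, and the submitters' processing notes name RMA, robust multi-array averaging, as the method. Its version and settings are not given in the sources used here. RMA sets the arrays to a common distribution, so a difference in total RNA per cell is lost. Per the labels' protocols, 5 µg of total RNA was labelled by amplification from the 3′ end. The array number limits the precision.

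The table held 24123 probe sets, of which 124 controls were left out. In R 4.3.3 with limma 3.58.1, 1 mean per group was fitted to each of 23999 probe sets over 11 samples, DFOG replicates 2 and 3 averaged, with 7 residual degrees of freedom and Benjamini-Hochberg adjustment over all probe sets. The fit was tried on simulated data with 200 of 23999 probe sets changed in MA. It recovered 43% of changes of 1 and 88% of changes of 2 on the log2 scale, and 8 of 139 calls were false. A far larger share, 40.5%, passed in the real comparison, and the adjusted p depends on that share. These rates therefore check the fit only and do not give the power of MA minus GC. Figures were drawn with Python 3.11.15, pandas 2.3.3 and matplotlib 3.10.9.

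The platform annotation gave 1 symbol to 10069 probe sets, several to 198 and none to 13732, and 198 placeholder symbols were not named. The genes, the 38 gene lists and the tests were chosen with earlier results of these data known. Named were the 15 widest gaps per direction without overlap, up to 4 members per list and direction (8 in the identity lists), the 8 per direction kept in culture, and 6 each of those lost or opposite, with further list members as examples. Of 783 list genes 545 were measured. Promoter motifs and protein sequences, planned for this comparison, were not analysed here. Alternatives were other scalings, probe set rules, thresholds, covariates and each array left out.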

Additional observations from a re-analysis of the deposited data

Results flagged for a closer look

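The test of the isolated against the cultured tissue difference passed for 5593 probe sets. The genes named under the rules for it are given here with the difference of the 2 differences, (MA minus GC) minus (DFAT minus DFOG), from the limma fit. They were picked by these same values, which favours large changes.

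Of the genes that were higher in MA and in DFOG, HSD3B1 gave 10.14 (adjusted p = 1.19e-06), SGK1 5.47, MMD, a membrane receptor of the progestin and adiponectin receptor family, 5.5, NUAK1 5.42, CYP27A1 5.42 and C17H8orf4 4.67. HSD3B1 went from low in GC to high in DFOG and from high in MA to low in DFAT. Of those higher in GC and in DFAT, ABCB1 gave -6.43 (adjusted p = 1.21e-06), TMEM158 -6.15, AREG -6.03, ACTG2 -4.32 (at the brighter of 2 probe sets that were called in opposite directions between MA and GC), CD55 -5.15 and PEG10, an imprinted gene, -5.05.

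Among genes higher in MA that did not pass in the cultured lines, CA3 gave 8.64 (adjusted p = 1.53e-07), PON3 8.61, COL15A1 7.96, VCAM1, an adhesion molecule for leukocytes, 7.90, SGK2 7.39 and CCL2 6.88. Among those higher in GC, IGFBP2 gave -10.64 (adjusted p = 0.000668), SERPINE2 -9.03, HSD17B1 -8.43, DAPL1 -7.98, VCAN -7.95 and GSTA1 -7.78. IGFBP2 differed by -6.52 in the isolated cells and 4.12 in the cultured lines, where it missed the threshold (adjusted p = 0.0641). COL15A1, SERPINE2 and VCAN read high in both cultured lines, COL15A1 with means of 13.1 in DFAT and 12.7 in DFOG.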

How the results depend on the processing

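The count of 9713 probe sets that separate MA from GC lay within a factor of 1.5 under all alternatives except centring on the poly-A controls and the 2-fold rule. Poly-A centring called 20211 probe sets, 1146 higher in MA and 19065 higher in GC, 5505 named genes, 250 probe sets higher in both MA and DFAT, and 16761 for the isolated minus cultured difference. By its construction it took 1.35 off every MA minus GC difference, and it turned those of ACADM (-0.15), ACVR1 (-0.20), ADRA2A (-1.30), ADRB3 (-1.29), CD3E (-0.75), CDH1 (-1.03), CKM (-0.47), COX7A1 (-0.16), CYP17A1 (-1.01), CYP19A1 (-1.27), EGR1 (-1.22), ESR2 (-1.31), FOXL2 (-1.21), GATA3 (-0.17), KDR (-1.20), KITLG (-0.78), LEPR (-1.25), LHX9 (-0.71), NPC1 (-0.28), POU5F1 (-1.03), PRRX1 (-0.21), PTPRC (-1.33), SLC2A4 (-0.98), SPI1 (-1.30), STAR (-1.32) and VWF (-0.68). No other alternative turned the sign of a gene named here that it or the reported fit called. The 2-fold rule left 6165 probe sets, 3006 of them higher in MA, and 2054 named genes. At an adjusted p under 0.01, 1122 probe sets separated DFAT from DFOG, 3452 passed for the isolated minus cultured difference, and 303 and 349 kept their side in culture.

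With each array left out in turn, the MA minus GC count ran from 8373 to 10168 probe sets, from 4163 to 5218 higher in MA, from 4018 to 4950 higher in GC, and from 2892 to 3510 named genes, and 303 to 350 list members passed. The DFAT minus DFOG count ran from 1103, without DFOG replicate 1, to 2138, the probe sets kept on the fat side from 308 to 673 and on the follicle side from 360 to 622, and the isolated minus cultured count from 4130 to 5899. Without DFOG replicate 1 the lone sample is assumed to vary like the other groups. With the replicate number as a block over MA, GC and DFAT, 9502 probe sets passed, 9100 of them also without the block, 93.7% of the reported calls. The numbers are not known to pair the samples, same-numbered MA and GC arrays deviated together with r from -0.12 to 0.03, and no MA array correlated best with the GC array of its own number except replicate 3. Of the gene values under alternatives 5516 kept their side of the threshold, and those called kept their direction. A value called in neither fit was counted among these if it moved little against its spread, whatever its sign. SAL1 is an example, at 1.04 in the reported fit and -0.92 without MA replicate 1. Of the rest, 27 newly passed, 26 turned, and the others missed the threshold or, with no call, moved. The alternative for promoter motifs, a 2-fold in place of a 4-fold rule, was not run, since promoters were not analysed here. Arrays without detection calls limit what can be said of genes near the floor.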

Other observations

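Of 13732 probe sets without a gene symbol 5090 separated MA from GC, 2380 higher in MA and 2710 higher in GC. Over all 23999 probe sets, which include these, 9713 (40.5%) did so. Of the called probe sets without a symbol 46.8% were higher in MA, against 54.3% of the called named genes. Whether probe sets with and without a symbol differ was not tested. The widest gap on the GC side of the array belonged to a probe set without a symbol, with a mean log2 level of 13.38 in GC and 3.20 in MA (difference -10.18, limma adjusted p = 1.16e-08), wider than that of RARRES1. On the MA side another one, at 12.36 in MA and 2.78 in GC (difference 9.57, limma adjusted p = 5.09e-06), ranked with AGT.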
